A study of Rattus norvegicus with 9 samples.

Results

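Mitochondrial ribosomal protein genes were followed in the gastrocnemius (the calf muscle) of rats after injury of the sciatic nerve, which supplies it, with or without electrical stimulation. They were taken as the genes whose RefSeq symbol starts with Mrpl or Mrps and a digit and whose expected count (RSEM's estimate of the sequenced fragments from a gene) reached 10 in at least 3 of the 9 libraries. The rule gave 70 genes of the 13752 gene IDs in the files, 43 with an Mrpl and 27 with an Mrps symbol. RefSeq holds 8 more protein-coding genes with such symbols that are not in the files, among them Mrpl28, Mrpl33, Mrpl39 and Mrps6. Their levels are not known here. The count threshold left out none of the matching genes in the files, since all 70 had at least 10 counts in all 9 libraries. Nearest to it was Mrps33, a protein of the small subunit, with 42 counts in its lowest library.

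There were 3 groups of 3 libraries from the muscle of male rats aged 8 weeks. SHAM had a sham operation, DN a sciatic nerve injury, and DN-SM the same injury followed by daily stimulation through electrodes on the skin for 4 weeks, starting with the day of surgery (pulses of 25 V, 1 mA and 300 ms width, delivered at 2 Hz). All 3 groups were anaesthetised with sodium pentobarbital, and SHAM and DN wore the electrodes for 10 minutes with no current. The labels used here give no strain, kind of nerve injury or day of collection for SHAM and DN, and they leave unsaid whether each library was 1 animal, so p-values measure only the spread between these samples.

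The mitochondrial ribosome makes the few proteins encoded by mitochondrial DNA, all of them inner-membrane subunits of the respiratory chain and the ATP synthase. Its RNAs come from mitochondrial DNA, while every one of its proteins is encoded in the nucleus, made on cytosolic ribosomes and imported. Some of these proteins have counterparts in bacterial ribosomes and others are found only in mitochondria, and muscle, with its high demand for oxidative ATP, depends on their supply.

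In this muscle the 70 genes were moderately expressed, and 1 of them was called different between any 2 groups by edgeR. The median gene had a mean of 30.3 FPKM (fragments scaled to transcript length and library size, so that levels of different genes can be compared) over the 9 libraries, against 5.72 over the 10129 genes tested. After nerve injury 1 of the 70 passed the test, Mrpl45, which anchors the ribosome to the inner membrane at the mouth of its exit tunnel and was higher in DN than in SHAM. None passed in DN-SM against DN or in DN-SM against SHAM by the same edgeR test. Of all genes tested, edgeR called 4.26% in DN against SHAM, 0.00987% (1 gene) in DN-SM against DN and 0.839% in DN-SM against SHAM.

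The libraries held between 7926445 and 8893843 expected counts. The 70 genes took up 22641 to 29730 of them, which was 0.26% to 0.307% for SHAM, 0.298% to 0.349% for DN and 0.279% to 0.297% for DN-SM. The tissue label was checked with 8 skeletal muscle fibre markers, whose summed level was 128056 to 136123 FPKM for SHAM, 137860 to 152571 for DN and 145574 to 148294 for DN-SM. None of these 8 markers was at 0 in any library and none passed the edgeR test in any comparison. At an unadjusted p under 0.05 (edgeR) there were 2, 2 and 1 of them in the 3 comparisons. Of all genes tested, 22.3%, 17.6% and 12.8% had such a p. In DN against SHAM the 2 markers were Mb, higher, and Myh4, lower. Myh4 had 3684 ± 2860 FPKM for SHAM, 926 ± 92.3 for DN and 2253 ± 568 for DN-SM (SD, n = 3). Its log2 fold change in DN against SHAM was -2.11 ± 0.53 (SE, adjusted p = 0.0625, edgeR). SHAM replicate 2 stood apart at 6969 FPKM. Acta1 gave the largest part of the sums, which therefore do not show such shifts.

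**Figure D1:**
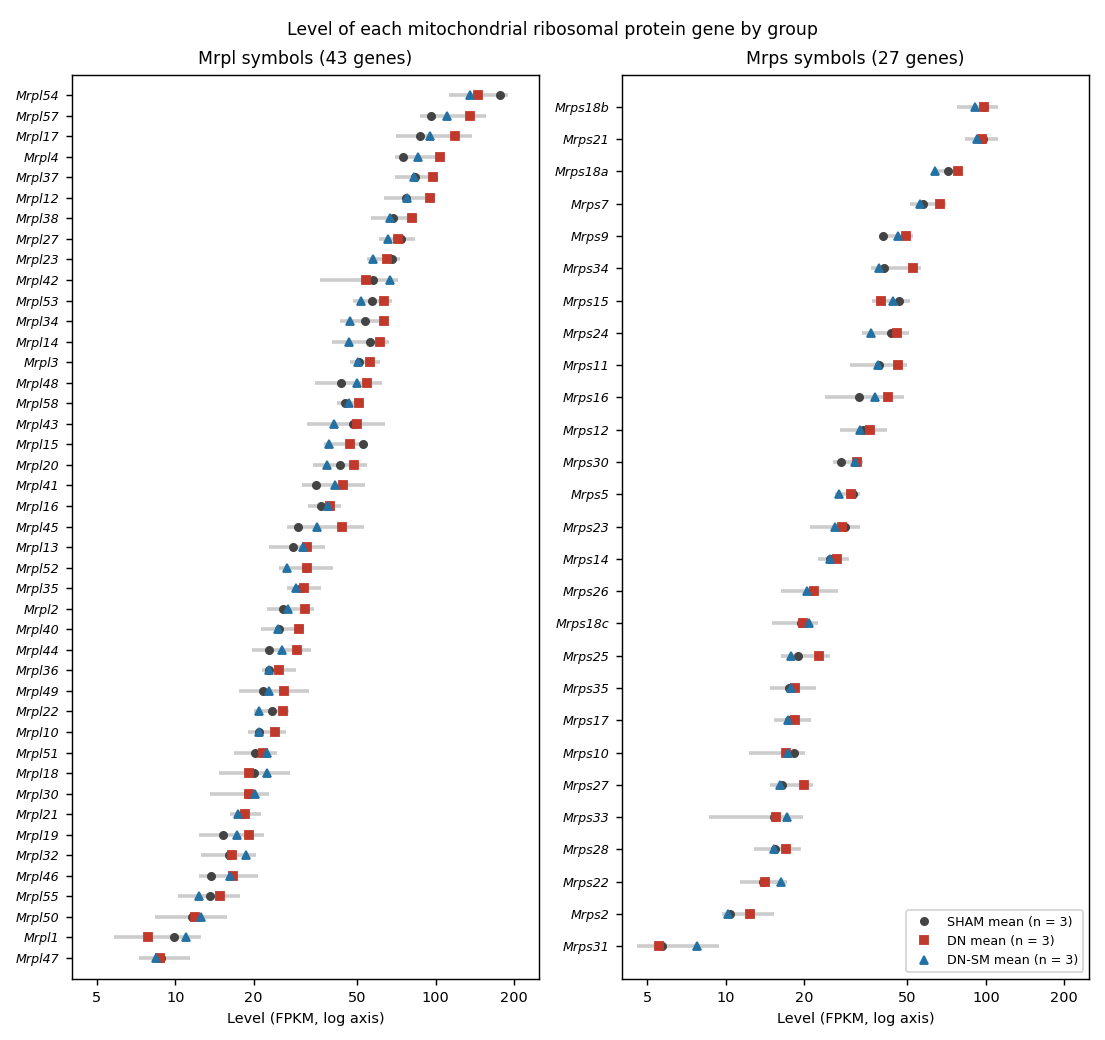
Mean level of each of the 70 genes by group, in FPKM on a log axis, with Mrpl symbols on the left and Mrps symbols on the right. Symbols are group means (n = 3) and the grey bar spans the lowest to the highest of the 9 libraries; the genes run from Mrps31 at 6.35 to Mrpl54 at 152 FPKM over all libraries, and the 3 group means of most genes lie close together.

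Levels differed far more between the genes than between the libraries. The highest mean over the 9 libraries was 24 times the lowest. Of the 70 genes, 18 lay above 50 FPKM, 49 between 10 and 50, and 3 below 10. Within a gene, the highest library was 1.53 times the lowest in the median gene, and 64 of the 70 stayed under 2 times. The plot of levels by gene shows both spreads.

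The most abundant gene was Mrpl54, a mitochondria-specific protein of the large subunit, at 152 FPKM over the 9 libraries. Next came Mrpl57, another mitochondria-specific protein of that subunit, at 114, and Mrpl17, the counterpart of bacterial L17, at 100.2 FPKM. In the small subunit Mrps18b stood at 95.9 FPKM and Mrps21, the counterpart of bacterial S21, at 95.4, and neighbours this close are not set apart by their spread over libraries.

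At the low end of the large subunit were Mrpl47, the counterpart of bacterial L29 beside the exit tunnel, at 8.64 FPKM and Mrpl1, of the stalk where used transfer RNA leaves, at 9.59 FPKM. In the small subunit the lowest were Mrps31, a mitochondria-specific protein, at 6.35 and Mrps2, the counterpart of bacterial S2, at 11.0 FPKM. Messenger RNA levels per length thus differed widely between proteins that sit in 1 particle.

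The Mrps18 paralogues are descended from 1 bacterial protein, S18, and sit at separate places of the ribosome. Mrps18c holds the bacterial position in the small subunit, Mrps18b sits elsewhere in that subunit, and Mrps18a belongs to the large subunit in spite of its symbol. Mrps18c had the lowest level of the 3, with 19.5 ± 2.79 FPKM for SHAM, 19.8 ± 4.13 for DN and 20.9 ± 1.74 for DN-SM (SD, n = 3). Mrps18b had 98.2 ± 18.0 FPKM for SHAM, 98.7 ± 3.03 for DN and 90.8 ± 6.44 for DN-SM (SD, n = 3). Mrps18a had 71.6 ± 7.07, 78.3 ± 2.01 and 63.9 ± 0.809 FPKM in the same order (SD, n = 3). The order of the 3 paralogues was the same in all 3 groups.

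Promoters are shown for some of the genes named above for their level and for the 1 gene that passed a test. Mrpl47, Mrps2, Mrps18b and Mrps21, also named for their level, had a promoter sequence in RefSeq but are not shown. Promoters were looked at since NRF1 and the ETS factor GABP are textbook activators of nuclear genes for mitochondrial proteins. The sequences are RefSeq's for the build GRCr8, 5′ to 3′ on the strand of the gene and ending at the base before the annotated start. Capitals mark exact matches, on either strand, to the core of the NRF1 motif (GCGCA and GCGC with any 1 base between them) or to CCGGAAG, an ETS motif bound by GABP. Each is the 250 bases before the start: Mrpl45 at chr10:82804789-82805038 (+), Mrpl57 at chr15:36086207-36086456 (+), Mrpl17 at chr1:169575700-169575949 (-), Mrps31 at chr16:76324066-76324315 (-), Mrpl54 at chr7:9103275-9103524 (+) and Mrpl1 at chr14:13663522-13663771 (-).
Mrpl45: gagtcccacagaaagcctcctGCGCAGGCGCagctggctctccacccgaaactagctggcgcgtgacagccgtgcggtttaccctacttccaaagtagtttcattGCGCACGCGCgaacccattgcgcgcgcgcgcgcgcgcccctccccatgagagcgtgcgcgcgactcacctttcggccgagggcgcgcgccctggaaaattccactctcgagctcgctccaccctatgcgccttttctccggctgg
Mrpl57: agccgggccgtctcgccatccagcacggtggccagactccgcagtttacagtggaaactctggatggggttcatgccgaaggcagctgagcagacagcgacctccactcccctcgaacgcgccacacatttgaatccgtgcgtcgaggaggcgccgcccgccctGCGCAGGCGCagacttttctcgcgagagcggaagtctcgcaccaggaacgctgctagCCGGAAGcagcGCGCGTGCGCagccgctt
Mrpl17: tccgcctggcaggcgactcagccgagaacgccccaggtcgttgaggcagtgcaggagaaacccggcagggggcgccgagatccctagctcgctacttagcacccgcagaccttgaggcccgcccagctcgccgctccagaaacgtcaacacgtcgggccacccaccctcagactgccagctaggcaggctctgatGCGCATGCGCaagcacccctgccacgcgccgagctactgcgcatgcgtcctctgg
Mrps31: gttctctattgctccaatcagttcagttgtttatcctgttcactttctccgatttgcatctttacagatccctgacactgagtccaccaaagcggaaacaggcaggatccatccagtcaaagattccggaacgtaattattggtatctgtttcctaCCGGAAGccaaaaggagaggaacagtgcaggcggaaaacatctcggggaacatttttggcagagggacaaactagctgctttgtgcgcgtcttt
Mrpl54: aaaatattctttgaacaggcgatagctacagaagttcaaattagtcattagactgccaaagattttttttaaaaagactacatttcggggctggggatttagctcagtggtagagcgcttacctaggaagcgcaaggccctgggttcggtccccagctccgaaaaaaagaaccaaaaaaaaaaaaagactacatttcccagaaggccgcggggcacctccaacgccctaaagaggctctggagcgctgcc
Mrpl1: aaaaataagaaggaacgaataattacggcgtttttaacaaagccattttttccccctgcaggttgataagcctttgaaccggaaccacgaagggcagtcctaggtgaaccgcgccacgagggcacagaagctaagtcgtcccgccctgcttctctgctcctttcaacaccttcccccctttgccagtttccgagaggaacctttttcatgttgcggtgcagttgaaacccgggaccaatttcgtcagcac

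The stretch of Mrpl45 holds 2 matches to the NRF1-type motif, 229 and 145 bases before the start. That of Mrpl57 holds 2 more, 86 and 18 bases before the start, beside 1 ETS-type match. Mrpl17 has 1 NRF1-type match and Mrps31 1 ETS-type match in the bases shown, while those of Mrpl54 and Mrpl1 hold neither. A match is a string of letters and no evidence of binding, and a window without one says nothing about the factor.

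RefSeq's table held a promoter window, 250 bases before to 50 after the start, for 56 of the 70 genes. The NRF1-type motif was in 9 of the 56 windows (16.1%), beside 10.5% of 8297 windows of genes tested and 4.25% of all 33469. The ETS-type motif was in 20 of 56 (35.7%), beside 18.6% and 8.75%. CCAAT was in 44.6% of the 56 windows, CACGTG in 10.7% and TATAAA in 12.5%, beside 38.0%, 9.87% and 6.83% of the windows of genes tested; these motifs can overlap others. The windows differ in base composition, with a median of 56.2% G or C for the 56, 61.0% for genes tested and 51.7% for all.

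Genes with either motif (25, of which 4 had both) ran from 6.35 to 114 FPKM with a median of 47.3. The 31 genes with neither ran from 8.64 to 152 FPKM with a median of 26.5. The median log2 fold change in DN against SHAM was 0.05 in the 25 and 0.12 in the 31, and both sets held positive and negative values. These are descriptions of the 56 genes, with no test.

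The first comparison, DN against SHAM, asks how the muscle differs after sciatic nerve injury. Of the 70 genes 1 was called higher and 0 lower (edgeR quasi-likelihood test, Benjamini-Hochberg adjusted over 10129 genes, threshold 0.05), where 4.26% of all genes tested were called in either direction and 2.57% as higher. At an unadjusted p under 0.05 there were 6 higher and 3 lower, 9 in all, against 22.3% of all genes tested. DESeq2 also called 1 of the 70. The median log2 fold change of the 70 was 0.05, with the middle 50% between -0.06 and 0.19, and over all genes tested it was -0.01, with the middle 50% between -0.25 and 0.23. The called share of the 70 genes was no higher than the background, around a median near 0.

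Mrpl45 had 32, 26.9 and 29.7 FPKM in the SHAM libraries, 37.6, 40.5 and 53.2 in DN, with 34.7, 34.4 and 36.0 in DN-SM. Every DN library lay above every SHAM library, DN replicate 3 stood highest, and the DN-SM libraries lay between the other groups without overlap. The log2 fold change in DN against SHAM was 0.49 ± 0.11 (SE, adjusted p = 0.0345, edgeR; 95% interval 0.25 to 0.74). It was -0.22 ± 0.11 in DN-SM against DN (adjusted p = 0.327, edgeR) and 0.27 ± 0.11 in DN-SM against SHAM (adjusted p = 0.327, edgeR).

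The call of Mrpl45 was a narrow one. Leaving out any single library other than SHAM replicate 3 took the adjusted p of edgeR to between 0.0507 and 0.142, with the fold change at 0.38 on the log2 scale without DN replicate 3. A fit of SHAM and DN alone gave an adjusted p of 0.0907 (edgeR), and limma on log2 FPKM gave 0.06 to 0.089. With the length trend of each library removed, the log2 fold change was 0.47 (adjusted p = 0.0492, limma). Its count was fractional in 8 of 9 libraries, which marks fragments that RSEM shared out, and RefSeq lists 1 pseudogene copy.

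The next-highest fold changes belonged to 2 other large-subunit genes, and neither passed the test. Mrpl57 had 114, 87.2 and 86.8 FPKM for SHAM, 137, 113 and 156 for DN and 95.7, 99.4 and 136 for DN-SM. DN replicate 2 lay inside the SHAM range, so the groups overlapped, and the log2 fold change in DN against SHAM was 0.43 ± 0.15 (SE, adjusted p = 0.117, edgeR). Mrpl57 overlaps Ska3 in RefSeq and its counts were fractional in all 9 libraries, so its value is uncertain.

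Mrpl4, the counterpart of bacterial L4 that lines the exit tunnel, had 69.8, 74.6 and 79.8 FPKM for SHAM, 107, 101 and 103 for DN and 71.1, 82.6 and 103 for DN-SM. All DN libraries lay above all SHAM libraries, and the DN-SM libraries spread from one group to the other. Its log2 fold change in DN against SHAM was 0.40 ± 0.15 (SE, adjusted p = 0.137, edgeR).

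The most negative values in DN against SHAM were those of Mrpl1, Mrpl54 and Mrps15, and none passed the test. Mrpl1 had 12.3, 11.5 and 5.82 FPKM for SHAM, 7.72, 8.24 and 7.64 for DN and 12.5, 9.09 and 11.4 for DN-SM. SHAM replicate 3 lay below every DN library and the other SHAM libraries above, which left a log2 fold change of -0.39 ± 0.24 (SE, adjusted p = 0.37, edgeR). Without SHAM replicate 3 the value was -0.65 and passed the test (adjusted p = 0.039, edgeR), so that library decides the call.

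Mrpl54, the most abundant of the 70, had 190.3, 158.3 and 180.7 FPKM for SHAM, 135, 158 and 143 for DN and 148, 113 and 144 for DN-SM. Every DN library lay under every SHAM library, the nearest pair by less than 1 FPKM, and the DN-SM libraries lay under SHAM as well. The log2 fold change was -0.35 ± 0.13 in DN against SHAM (SE, adjusted p = 0.128, edgeR) and -0.36 ± 0.13 in DN-SM against SHAM (SE, adjusted p = 0.236, edgeR), 2 values that share the SHAM libraries.

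Mrps15, the counterpart of bacterial S15 that binds ribosomal RNA of the small subunit, had 46.8, 48.0 and 44.7 FPKM for SHAM, 36.4, 41.7 and 40.3 for DN and 40.7, 50.9 and 40.3 for DN-SM. DN lay wholly under SHAM, with a log2 fold change of -0.31 ± 0.12 (SE, adjusted p = 0.155, edgeR). The other genes of the 9 with an unadjusted p under 0.05 were Mrpl17, Mrps34 and Mrpl44 on the higher side and Mrpl15 on the lower; this list was chosen after the values were seen.

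**Figure D2:**
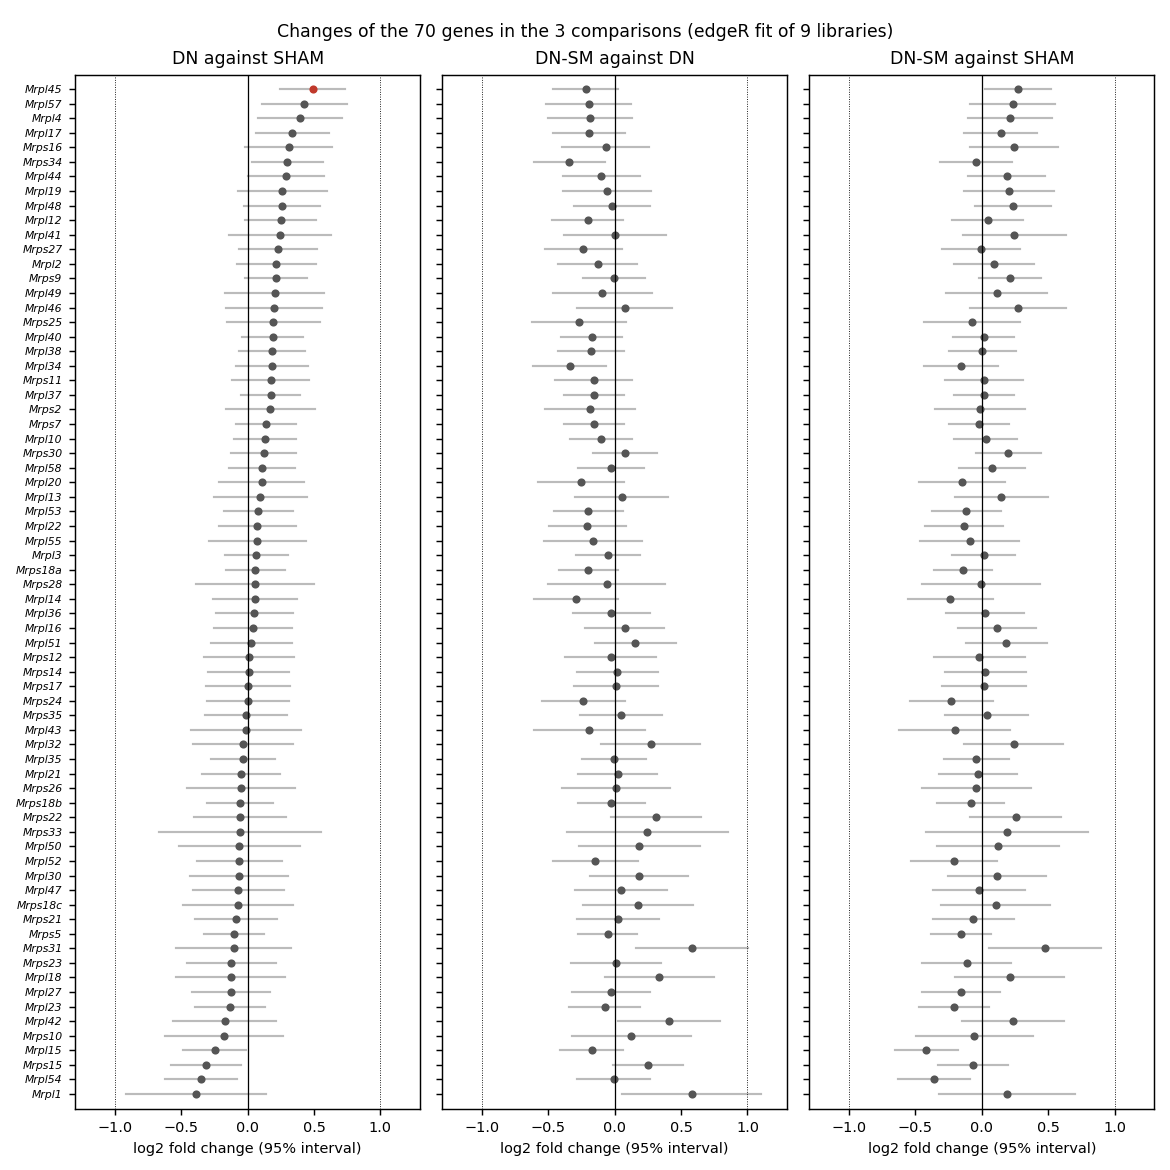
Log2 fold change of each of the 70 genes in the 3 comparisons, with its 95% interval, in the order of the DN against SHAM values. Mrpl45, in red, is the 1 gene past the adjusted threshold, and the dotted lines mark -1 and 1; the intervals of all 70 genes lie inside them in DN against SHAM and DN-SM against SHAM, and those of 68 in DN-SM against DN.

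The intervals say how large a difference these libraries could have hidden. In DN against SHAM the 95% interval of the log2 fold change lay within -1 and 1 for all 70 genes, against 70.6% of all genes tested, and within -0.5 and 0.5 for 44 of the 70. In DN-SM against DN the counts were 68 and 45 of 70, and in DN-SM against SHAM 70 and 46. The median half-width was 0.31 for the 70 genes and 0.45 for all genes tested in DN against SHAM. A 2-fold change in either direction thus lay outside the interval of each of the 70 genes in the comparisons with SHAM. For the 26 genes whose interval reached past -0.5 or 0.5 in DN against SHAM, a change of that size was within the interval.

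Libraries of a group also lay close together for these genes. CPM here means counts scaled to the library total after adjustment by the library's TMM normalisation factor. Within groups, log2 CPM had a median SD of 0.151 for SHAM, 0.15 for DN and 0.10 for DN-SM over the 70 genes. Over all genes tested the median SD was 0.251, 0.187 and 0.171. The 70 genes were also more abundant than the median gene tested, and the part of level in this gap was not tested.

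By role in the ribosome, the 70 genes were divided into proteins of either subunit with or without a bacterial counterpart. Mrps18a and Mrps30 were placed in the large subunit in spite of their symbols. Mrps18a and Mrps18b were counted as mitochondria-specific although they descend from bacterial S18, and Mrps18c as its counterpart. The 20 mitochondria-specific proteins of the large subunit had a median log2 fold change of 0.15 in DN against SHAM, with 15 of 20 above 0 and 1 called, Mrpl45. The 25 large-subunit proteins with a bacterial counterpart had a median of 0.05, with 15 above 0 and 0 called. In the small subunit the 15 with a counterpart had a median of 0.01 and the 10 without one -0.05, with 10 and 3 genes above 0 and 0 called in either. Over all genes tested 48.7% were above 0, and the differences between these classes were not tested.

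Taken per library, the medians of the 70 genes varied within the groups and overlapped between them. Each gene's log2 CPM was centred on its mean over the 9 libraries, and the median over the 70 was -0.09, -0.07 and 0.06 for SHAM, -0.07, 0.08 and 0.10 for DN and -0.02, -0.03 and 0.03 for DN-SM. SHAM replicate 3 lay with the higher DN libraries and DN replicate 1 with the lower SHAM libraries, so the groups overlapped. The shares of the 70 genes above their own mean were 24.3%, 32.9% and 70% for SHAM, 40.0%, 67.1% and 77.1% for DN and 45.7%, 42.9% and 60.0% for DN-SM. The pooled SD of the library medians within groups was 0.0755, more than the 0.05 by which the 70 genes' median fold change differed from 0.

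Library medians over all genes tested also differed with transcript length. The 70 genes are short, with a median length of 1022.5 bases and a range of 483 to 2426, against a median of 2184 for genes tested. All 935 genes under 1000 bases had library medians of -0.08, -0.04 and 0.08 for SHAM, -0.0018, 0.08 and 0.07 for DN and -0.02, -0.02 and 0.03 for DN-SM. All 1648 genes of 4000 bases or more had 0.09, 0.06 and -0.08 for SHAM, -0.02, -0.05 and -0.07 for DN and 0.06, 0.08 and 0.01 for DN-SM, the opposite sign in 7 of 9 libraries. In DN against SHAM the median log2 fold change was 0.05 for genes under 1000 bases and -0.10 for those of 4000 or more. With each library's trend with length removed, the median of the 70 genes was -0.01 in place of 0.05. The part of length in these values was not tested beyond that.

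**Figure D3:**
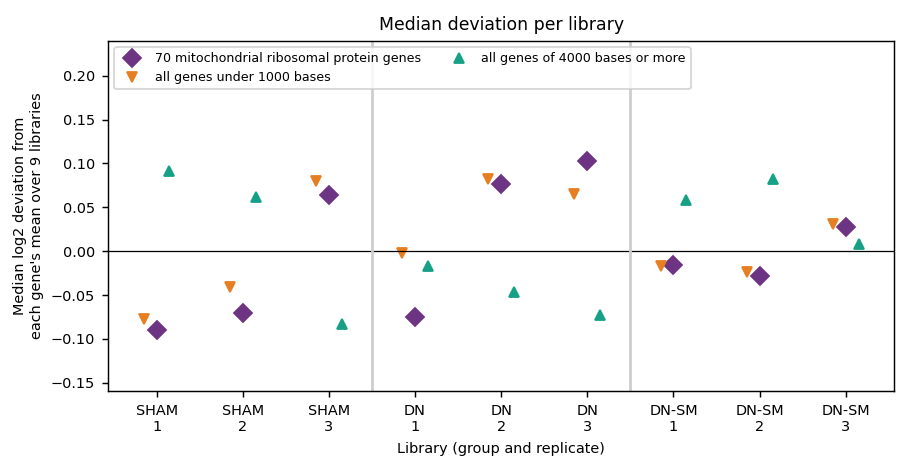
Median deviation of log2 CPM from each gene's mean over the 9 libraries, by library, for the 70 genes (diamonds), all genes under 1000 bases and all genes of 4000 bases or more. The 70 genes lie with the short genes in most libraries, at 0.06 in SHAM replicate 3 and 0.10 in DN replicate 3, and with both classes near 0 in DN-SM replicate 3.

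Markers of other cell types also differed between the groups, and in bulk tissue fewer cells of a type and less RNA per cell cannot be told apart. Of 6 Schwann cell markers 2 were higher in DN than in SHAM (Mbp and Ngfr, edgeR), and their summed level was 39.2 to 44.8 FPKM for SHAM, 99.7 to 251 for DN and 55.4 to 135 for DN-SM. Of 5 endothelial markers 3 were higher in DN than in SHAM (Pecam1, Cdh5 and Tie1, edgeR). The 5 summed to 80.9 to 103 FPKM for SHAM, 128 to 167 for DN and 114 to 129 for DN-SM. Cdh5 was also higher in DN-SM than in SHAM (edgeR). Kdr and Vwf were not called, with log2 fold changes of -0.09 and 0.42 in DN against SHAM. In DN-SM against SHAM these 2 had -0.52 and -0.14. Of all genes tested, edgeR called 2.57% higher in DN against SHAM and 0.415% in DN-SM against SHAM. Of the macrophage, fibroblast and adipocyte markers none passed in any comparison. No marker of Schwann or endothelial cells was at 0 in any library, and their part in the levels of the 70 genes was not tested.

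The second comparison, DN-SM against DN, asks what stimulation changes in injured muscle. None of the 70 genes was called (edgeR), where the background was 0.00987% of all genes tested, that is 1 gene, and DESeq2 called none of the 70 either. That background depends on the fit: 215 genes were called with DESeq2, 716 in a fit of DN and DN-SM alone, and 339 and 416 without SHAM replicate 2 or 3, with none of the 70 among them. At an unadjusted p under 0.05 there were 3 higher and 2 lower, against 17.6% of all genes tested. The median log2 fold change was -0.04, with 25 of 70 genes above 0, beside -0.01 over all genes tested. This comparison and DN against SHAM share the DN libraries, so values of opposite sign in them are no independent evidence of each other.

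Mrps31 and Mrpl1 had the highest values, each at 0.58 on the log2 scale. Mrps31 had 6.61, 5.93 and 4.56 FPKM for SHAM, 4.77, 5.53 and 6.40 for DN and 6.86, 9.40 and 7.05 for DN-SM. The DN-SM libraries lay above all others, with replicate 2 the highest. The fold change was 0.58 ± 0.19 against DN (SE, adjusted p = 0.19, edgeR) and 0.48 ± 0.19 against SHAM (SE, adjusted p = 0.326, edgeR). With 55 to 110 counts per library it was also the gene of lowest level, and a long non-coding RNA overlaps it in RefSeq.

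The DN-SM libraries of Mrpl1, given above, lay above all DN libraries, with a log2 fold change of 0.58 ± 0.24 (SE, adjusted p = 0.241, edgeR). Its interval, 0.06 to 1.10, reached higher than that of any other of the 70. Mrpl42, a mitochondria-specific protein of the large subunit, had 59.5, 50 and 62.7 FPKM for SHAM, 36.0, 63.7 and 61.9 for DN and 66.2, 71.9 and 61.8 for DN-SM. DN replicate 1 stood alone at the bottom while the other DN libraries lay in the range of the rest, and the log2 fold change in DN-SM against DN was 0.41 ± 0.18 (SE, adjusted p = 0.254, edgeR).

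On the lower side stood Mrps34, a small-subunit protein whose loss destabilises that subunit, with 42.1, 36.3 and 43.3 FPKM for SHAM, 56.6, 48.6 and 52.1 for DN and 37.2, 40.0 and 39.2 for DN-SM. The DN libraries lay above all 6 others. The log2 fold change was -0.34 ± 0.12 in DN-SM against DN (SE, adjusted p = 0.203, edgeR) and 0.30 ± 0.12 in DN against SHAM (SE, adjusted p = 0.18, edgeR), which share the DN libraries.

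Mrpl34, the counterpart of bacterial L34, had 62.7, 43.8 and 53.7 FPKM for SHAM, 63.5, 62.4 and 64.0 for DN and 48.8, 48.9 and 42.9 for DN-SM. DN-SM lay wholly under DN, and SHAM spread across both, with a log2 fold change of -0.34 ± 0.13 in DN-SM against DN (SE, adjusted p = 0.213, edgeR). Mrpl14, the counterpart of bacterial L14 on the face towards the small subunit, had 55.9 ± 7.20 FPKM for SHAM, 60.9 ± 6.11 for DN and 46.7 ± 9.55 for DN-SM (SD, n = 3). Its groups overlapped, with a log2 fold change of -0.29 ± 0.15 in DN-SM against DN (SE, adjusted p = 0.316, edgeR).

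**Figure D4:**
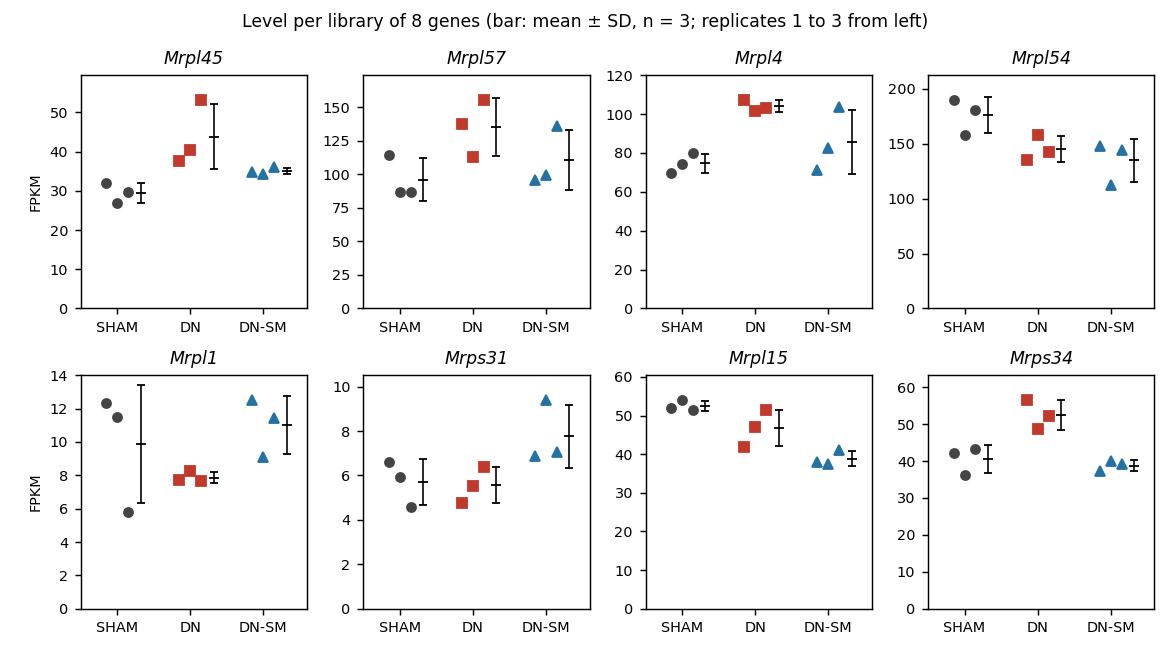
Level in FPKM of 8 of the named genes in each library, with SHAM, DN and DN-SM from left to right, replicates 1 to 3 as points and mean ± SD (n = 3) as bars; every axis starts at 0. The highest library of Mrpl45 is DN replicate 3 at 53.2 FPKM, the lowest of Mrpl1 is SHAM replicate 3 at 5.82, and the DN libraries of Mrps34 lie above all others.

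The third comparison, DN-SM against SHAM, sets stimulated injured muscle beside sham-operated muscle. None of the 70 genes was called by edgeR, against 0.839% of all genes tested, and at an unadjusted p under 0.05 there were 2 higher and 2 lower, against 12.8%. DESeq2 called 1, Mrpl15, as lower. The median log2 fold change was 0.02 for the 70 genes, with 39 above 0, and 0.02 for all genes tested.

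Mrpl15, the counterpart of bacterial L15, had 52.0, 54.0 and 51.5 FPKM for SHAM, 42.0, 47.1 and 51.4 for DN and 38.0, 37.4 and 41.0 for DN-SM. The 3 groups did not overlap, with SHAM highest and DN-SM lowest, although DN replicate 3 came within 1 FPKM of SHAM. The log2 fold change in DN-SM against SHAM was -0.42 ± 0.11 (SE, adjusted p = 0.11, edgeR) and with DESeq2 -0.44 (adjusted p = 0.0327). It was -0.25 ± 0.11 in DN against SHAM (SE, adjusted p = 0.206, edgeR). RefSeq lists 2 pseudogenes of Mrpl15.

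Beside Mrps31 and Mrpl45, given above, the highest value in DN-SM against SHAM was that of Mrpl46, a mitochondria-specific large-subunit protein. It had 13.7 ± 1.59 FPKM for SHAM, 16.6 ± 4.21 for DN and 16.3 ± 1.19 for DN-SM (SD, n = 3), the groups overlapped, and the log2 fold change was 0.27 ± 0.17 (SE, adjusted p = 0.525, edgeR). Mrpl14, given above, had -0.24 ± 0.15 (SE, adjusted p = 0.534, edgeR), the third-lowest of the 70.

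Libraries of 2 groups also failed to overlap for some of the 70 genes. In normalised CPM the DN libraries all lay above the SHAM libraries for 14 of the 70 (20%, against 14.1% of all genes tested) and all below for 3 (4.29%, against 10.1%). The DN-SM libraries lay above the DN libraries for 5 (7.14%, against 17%) and below for 11 (15.7%, against 13.3%). The DN-SM libraries lay above the SHAM libraries for 7 (10%, against 9.36%) and below for 5 (7.14%, against 8.98%). The shares of the 70 genes with DN as the higher group were thus above those of all genes in both comparisons that hold DN, which share its libraries, and those with DN as the lower group were below; the difference from all genes was not tested. On the scale of the FPKM values, log2(FPKM + 1), the median over all genes was 0.05 in DN against SHAM and -0.09 in DN-SM against DN, which shifts single FPKM values by as much. In CPM the DN group had the highest mean for 35 of the 70 genes (50%, against 36.8% of all genes tested), SHAM for 16 (22.9%, against 30.5%) and DN-SM for 19 (27.1%, against 32.7%).

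Ribosomal proteins of the mitochondrion outside these symbols were described as well. The 5 measured were Dap3, Ptcd3, Chchd1, Aurkaip1 and Gadd45gip1, and 0 passed the edgeR test in any comparison. At an unadjusted p under 0.05 (edgeR) there were 1, 2 and 0, against 22.3%, 17.6% and 12.8% of all genes tested. Their median log2 fold change in DN against SHAM was -0.03. Dap3, a GTP-binding protein of the small subunit, had 9.86 ± 1.2 FPKM for SHAM, 13.5 ± 1.74 for DN and 11.8 ± 0.907 for DN-SM (SD, n = 3). Ptcd3, a pentatricopeptide protein of the small subunit, had 12.1 ± 3.20, 9.84 ± 2.80 and 14.9 ± 1.82 FPKM in the same order (SD, n = 3).

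The rest of the machinery for mitochondrial translation also held no called gene in any comparison by edgeR. That covers 11 translation factors, 22 assembly and ribosomal RNA modification factors, 17 aminoacyl-tRNA synthetases, 10 genes of mitochondrial transcription and messenger stability, 6 of membrane insertion and translational activation, and 8 tested regulators of mitochondrial biogenesis. Their median log2 fold changes in DN against SHAM were 0.14, 0.02, 0.06, -0.14, 0.11 and -0.25 in that order, and in DN-SM against DN 0.12, 0.07, -0.07, 0.27, -0.09 and -0.12. At an unadjusted p under 0.05 (edgeR) there were 5, 0, 0, 1, 2 and 1 in DN against SHAM, against 22.3% of all genes tested. In DN-SM against DN there were 3, 2, 0, 4, 1 and 1, against 17.6%. In DN-SM against SHAM there were 1, 2, 0, 0, 0 and 2, against 12.8%. At this unadjusted threshold (edgeR), 3 of the 11 translation factors were higher and 2 lower in DN against SHAM. By the same threshold, 3 of the 10 transcription and messenger genes were higher and 1 lower in DN-SM against DN. The differences of these short lists from all genes were not tested. Tufm, the elongation factor that brings transfer RNA to the mitochondrial ribosome, had 85.2 ± 13.9 FPKM for SHAM, 100.8 ± 16.2 for DN and 95.8 ± 3.33 for DN-SM (SD, n = 3).

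Tfam packages mitochondrial DNA and takes part in its transcription. It had 22.6 ± 3.99 FPKM for SHAM, 21.5 ± 4.51 for DN and 24.7 ± 1.44 for DN-SM (SD, n = 3). Ppargc1a, a coactivator of mitochondrial biogenesis, had 1.3 ± 0.365, 1.08 ± 0.122 and 1.54 ± 0.469 FPKM in the same order (SD, n = 3). The log2 fold change in DN against SHAM was 0.16 ± 0.13 for Tufm (SE, adjusted p = 0.51, edgeR), -0.15 ± 0.15 for Tfam (SE, adjusted p = 0.618, edgeR) and -0.32 ± 0.29 for Ppargc1a (SE, adjusted p = 0.558, edgeR).

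Some single genes around the ribosome had larger fold changes in DN against SHAM than any of the 70. They were chosen after the values were seen, and none passed the test. On the higher side were Mtfmt at 0.53 ± 0.20 (SE, adjusted p = 0.143, edgeR) and Cox18 at 0.52 ± 0.22 (SE, adjusted p = 0.19, edgeR). Mtif2, Guf1 and Mss51, given next, lay on the lower side and had the smallest p-values (edgeR). Mterf1, Tfb2m and Gtpbp10 lay on the lower side as well. In FPKM the SHAM and DN libraries overlapped for Mtif2, Guf1, Mterf1, Tfb2m and Gtpbp10, but not for Mss51, Mtfmt or Cox18. Counts per library were low for Mtif2 (28 to 78), Mterf1 (13 to 33) and Gtpbp10 (19 to 51). Mtif2, the factor that starts mitochondrial translation, had 3.30 ± 1.38 FPKM for SHAM, 1.72 ± 0.394 for DN and 3.80 ± 0.102 for DN-SM (SD, n = 3), a log2 fold change of -1 ± 0.29 in DN against SHAM (SE, adjusted p = 0.0714, edgeR). Guf1, a GTPase related to bacterial LepA, had 3.48 ± 0.654, 2.48 ± 0.289 and 4.36 ± 0.306 FPKM in the same order (SD, n = 3), a log2 fold change of -0.56 ± 0.17 (SE, adjusted p = 0.0762, edgeR). Mss51, a muscle gene whose yeast relative activates translation of a cytochrome oxidase subunit, had 165 ± 56.3, 60.3 ± 27.5 and 99.6 ± 19.2 FPKM in the same order (SD, n = 3), a log2 fold change of -1.54 ± 0.44 (SE, adjusted p = 0.0959, edgeR).

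Other large protein complexes were set beside the 70 genes, and the differences between the lists were not tested. For 83 cytosolic ribosomal protein genes the median log2 fold change was 0.12, -0.08 and 0.03 in the 3 comparisons in the order above, with 1 called higher in the first. For 76 nuclear-encoded respiratory chain subunits it was 0.11, -0.02 and 0.13, with 2 called higher in the first. For the 70 genes it was 0.05, -0.04 and 0.02, with 1 called higher in the first. Of all genes tested, 2.57% were called higher in that comparison, DN against SHAM (edgeR). The median level was 295 FPKM for the cytosolic ribosomal proteins and 384 for the respiratory chain subunits, against 30.3 for the mitochondrial ribosomal proteins.

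Counting limits some of these genes. In RefSeq 18 of the 70 overlap another gene and 23 have pseudogenes or like copies, and counts were fractional in at least 1 library for 9 of them, in all 9 libraries for 6. Whether the reads were counted by strand is not given in the sources used here.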

How the data were processed

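Messenger RNA of 9 libraries was sequenced on a BGISEQ-500. Per the file headers, the deposited files give each gene's expected count (RSEM's estimate, not normalized by the authors), its FPKM, scaled by the authors to length and library, and its transcript length in bases. RSEM, HISAT2, GATK and the build rn6 are named per the submitters' processing notes; versions are not given in the sources used here. Of 13752 IDs, 13649 matched a RefSeq symbol by gene ID and 7 by accession.

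Expected counts were rounded and genes kept by filterByExpr (minimum count 10, total 15), which left 10129. All 9 libraries entered 1 edgeR 4.0.16 quasi-likelihood fit (TMM factors, group as the only term, two-sided, robust), with Benjamini-Hochberg adjustment over the genes tested and a threshold of 0.05. SE and 95% intervals come from its F statistic. DESeq2 1.42.0 and limma 3.58.1 on log2(FPKM + 1) or log2(FPKM + 0.1) were among the alternatives. The fits were tested on simulated data. Totals of 7926445 to 8893843 counts per library limit precision for low genes. Named genes were every member past the threshold, the 3 highest and 3 lowest fold changes per comparison, the 3 highest and 2 lowest levels per subunit, the Mrps18 paralogues, the member nearest the count threshold, and Tufm, Tfam and Ppargc1a. Members, lists and rules were chosen with earlier results of these data known.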

Additional observations from a re-analysis of the deposited data

How the results depend on the processing

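The number of the 70 genes called in DN against SHAM was 1, and it was 0 with limma on log2(FPKM + 1), filtered or not, on log2(FPKM + 0.1), and in a fit of these 2 groups alone. It ran from 0 to 2 with each library left out in turn: 0 in 8 of these fits and 2, Mrpl45 and Mrpl1, without SHAM replicate 3. In DN-SM against SHAM it was 0, but 1 with DESeq2. The median log2 fold change in DN-SM against DN was -0.04 and became -0.136 with limma on log2(FPKM + 0.1) and -0.133 on log2(FPKM + 1), filtered or not, while the median over all genes also moved, to -0.109 and, filtered, -0.092. The cause of these shifts was not tested. The medians with 1 library left out ran from 0.03 to 0.108, from -0.105 to -0.021 and from -0.0007 to 0.084 in the order of the report's comparisons. Over all genes, 432 were called in DN against SHAM, but 758 with DESeq2, 156 in the fit of 2 groups, 112 to 275 with limma on FPKM, and 58 (without DN replicate 3) to 1183 (without SHAM replicate 3) with a library left out. In DN-SM against DN 1 was called, but 215 with DESeq2, 716 in the fit of 2 groups, 339 without SHAM replicate 2, 416 without SHAM replicate 3 and 0 to 2 without any other library. In DN-SM against SHAM 85 were called, but 259 with DESeq2, 28 in the fit of 2 groups, 12 to 43 with limma on FPKM, and 15 (without DN-SM replicate 1) to 137 (without SHAM replicate 2) with a library left out. Replicate numbers share no stated animal or day, and deviations of same-numbered libraries correlated at -0.0483 to 0.109. With the replicate block 1, 0 and 0 of the 70 genes were called, and 317, 1 and 39 of all genes. Of 378 values of named genes under alternatives, 0 reversed and 14 crossed the threshold, those of Mrpl45, Mrpl1 and Mrpl15.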
